A study of Mus musculus with 16 samples.

Results

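ScxGFP iPSC-derived cells that held mRNA of *Aldh1a2* after 3 days of TGF-β2 were compared with the cells sorted into the same plates in which none was counted. ScxGFP iPSCs are induced pluripotent stem cells from a transgenic mouse whose GFP is driven by regulatory sequence of *Scx*, and 1 clone of them was used for the single-cell plates. They were turned to mesoderm over 4 days in medium with 5% FBS, to which the study's methods add a GSK-3 inhibitor and a Hedgehog pathway inhibitor. By these methods, growth without the inhibitors came before, and a recovery without them and a step in 1% FBS came after. The mesodermal cells at the end of these steps, before TGF-β2, are T0. They were then kept with 1% FBS and 10 ng/ml of human TGF-β2 and collected on days 3, 6 and 9, which are T3, T6 and T9. Single live cells were sorted into 384-well plates, 3 plates per time point, and sequenced by CEL-Seq2, which tags each captured mRNA molecule with a UMI (unique molecular identifier) so that PCR copies count once. A cell entered when it had at least 200 genes and 3000 UMIs. It was positive when it held at least 1 UMI of *Aldh1a2* and negative when it held 0. Of the 1152 wells of T3 (4608 in the 12 plates of the series), 1038 cells passed, of which 430 were positive and 608 negative. The cells were thus chosen by their *Aldh1a2* count, so that *Aldh1a2* itself is a description and was left out of all sums and tests. Nothing in the sources used here says that the 3 plates hold separate cultures. The p-values thus measure how the difference between positive and negative cells varies between plates, and this spread may be technical.

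*Aldh1a2* (ENSMUSG00000013584, chromosome 9, GRCm38 71215789 to 71296243, plus strand) encodes the aldehyde dehydrogenase that turns retinaldehyde into retinoic acid, the last step of its synthesis. *Rdh10* makes retinaldehyde from retinol in the step before, enzymes of the Cyp26 family break retinoic acid down, and the signal is read by nuclear receptors (*Rara*, *Rarb*, *Rarg* and the Rxr genes). In the embryo the enzyme marks mesoderm, among it the somites, the lateral plate and the epicardium. *Il33* encodes a cytokine that cells hold in the nucleus and release when injured, and *Tcf21* a transcription factor of mesenchymal progenitors in several organs. Both were given with the comparison from earlier results of these data, so their differences at T3 are no independent evidence. *Scx* encodes the transcription factor of tendon progenitors that the induction is meant to raise.

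Positive cells made up 33.5%, 46.8% and 43.1% of the cells of T3 plates 1, 2 and 3. They held 381, 690 and 612 UMIs of *Aldh1a2*, which is 579.9, 491 and 459 CPM (UMIs out of every 1000000 in the summed cells). The median positive cell had 3 such UMIs and the highest 24. Positive cells were deeper than negative ones in every plate. The median positive cell of plates 1, 2 and 3 had 5477.5, 7371 and 8095 UMIs, and the median negative cell 4744, 5656 and 6945. A deeper cell is more likely to yield a UMI of any gene, so the tests were repeated with every cell thinned to 3000 UMIs. They were also repeated with each positive cell paired to the unused negative cell of its plate nearest in depth. Pairing lessened the gap in depth and did not remove it. Paired medians were 5477.5, 7371 and 8095 UMIs in positive and 5432, 6246.5 and 7610 in negative cells of plates 1, 2 and 3. With cells thinned to 3000 UMIs, 30.4% ± 6.1 (SD, n = 3 plates) of T3 cells were positive. Cells with UMIs of at least 3 of 9 pluripotent markers were taken to lack the gene, which was not tested, and serve as a rough measure of stray UMIs. At T0, 64 of 149 such cells held an *Aldh1a2* UMI, at a level of 55.2 CPM, and 13.4% did after thinning. At T3, 5 of 16 such cells held an *Aldh1a2* UMI, at a median depth of 13220 UMIs, and their level was 23.1 CPM against 239 CPM in the other T3 cells, whose median depth was 6089.5. After thinning, 12.5% of these cells and 30.9% of the others were positive. A negative cell may therefore hold mRNA that was not captured, and a positive one a stray UMI.

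Between the classes, 74 of 9721 genes tested (0.761%) were higher in positive cells and 73 (0.751%) were lower at an adjusted p of 0.05. The test was edgeR's quasi-likelihood test on the 6 sums, with the plate as a block and Benjamini-Hochberg adjustment over all genes tested, and each adjusted p given for T3 comes from it, on log2 fold changes of positive over negative cells. In such sums, more cells with a transcript and more transcripts per cell cannot be told apart, so the share of cells with a UMI is given for some genes. All 147 genes moved the same way in 3 of 3 plates, which is largely fixed because the test chose them on these same plates. The median log2 fold change of all genes tested was -0.01. Without the plate as a block, which leaves out that both sums of a plate share it, 0 genes were higher and 1 lower, with 444 at an unadjusted p under 0.05. Genes of retinaldehyde synthesis (*Rdh10*), Wnt inhibition (*Sfrp1*), the contractile cytoskeleton (*Acta2*) and mitosis (*Top2a*) were among those higher, and tendon and matrix genes (*Postn*, *Fmod*, *Tnmd*, *Scx*) among those lower. The counts depend on the plates: without plate 2 the test called 17 genes higher and 14 lower, without plate 3 it called 19 and 23, and without plate 1 it called 172 and 200. T3 plate 2 stands apart in its share of mitochondrially encoded UMIs, 12.1% in positive and 11.6% in negative cells, against 21.1% to 29.2% in the classes of plates 1 and 3. Plate 1 had the fewest genes per cell, with medians of 1456 in positive and 1244.5 in negative cells. The medians of the classes of plates 2 and 3 were 2228 to 2840 genes. The part of these plate differences in the counts was not tested. With thinned cells 13 genes were called higher and 25 lower among 7212 tested, 36 of them among the 147. A second draw called 55 and 70, 85 of them among the 147, and depth pairing 26 and 38, 64 of them among the 147. Of the 147 genes, 76 were called neither in the first thinned draw nor with depth pairing. Among the genes described here these were *Adh1*, *Rarg*, *Scx*, *Tnmd*, *Aspn*, *Loxl2*, *Sox9*, *Tpm1*, *Top2a*, *Ube2c*, *Ccnb1*, *Ccnb2*, *Ccna2*, *Nusap1*, *Plk1*, *Tdgf1*, *Ier3*, *Hmgcs1*, *Pmp22*, *Epha4*, *mt-Rnr1* and *mt-Nd4*, and also *Pfkfb3*, *Vegfa*, *Csrp1*, *Hspa5*, *Bub3* and *Tril*. Of these, *Tnmd* and *Tdgf1* fell under the filter once thinned. The genes called in the first thinned draw, with depth pairing, in DESeq2 and without each plate in turn were *Acta2*, *Hmgn3*, *Rdh10*, *Sfrp1* and *Stmn2* among the higher ones, and *Cdkn1a*, *Gja1*, *Gria2*, *Htra1*, *Malat1*, *Mgp* and *Postn* among the lower ones.

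**Figure D1:**
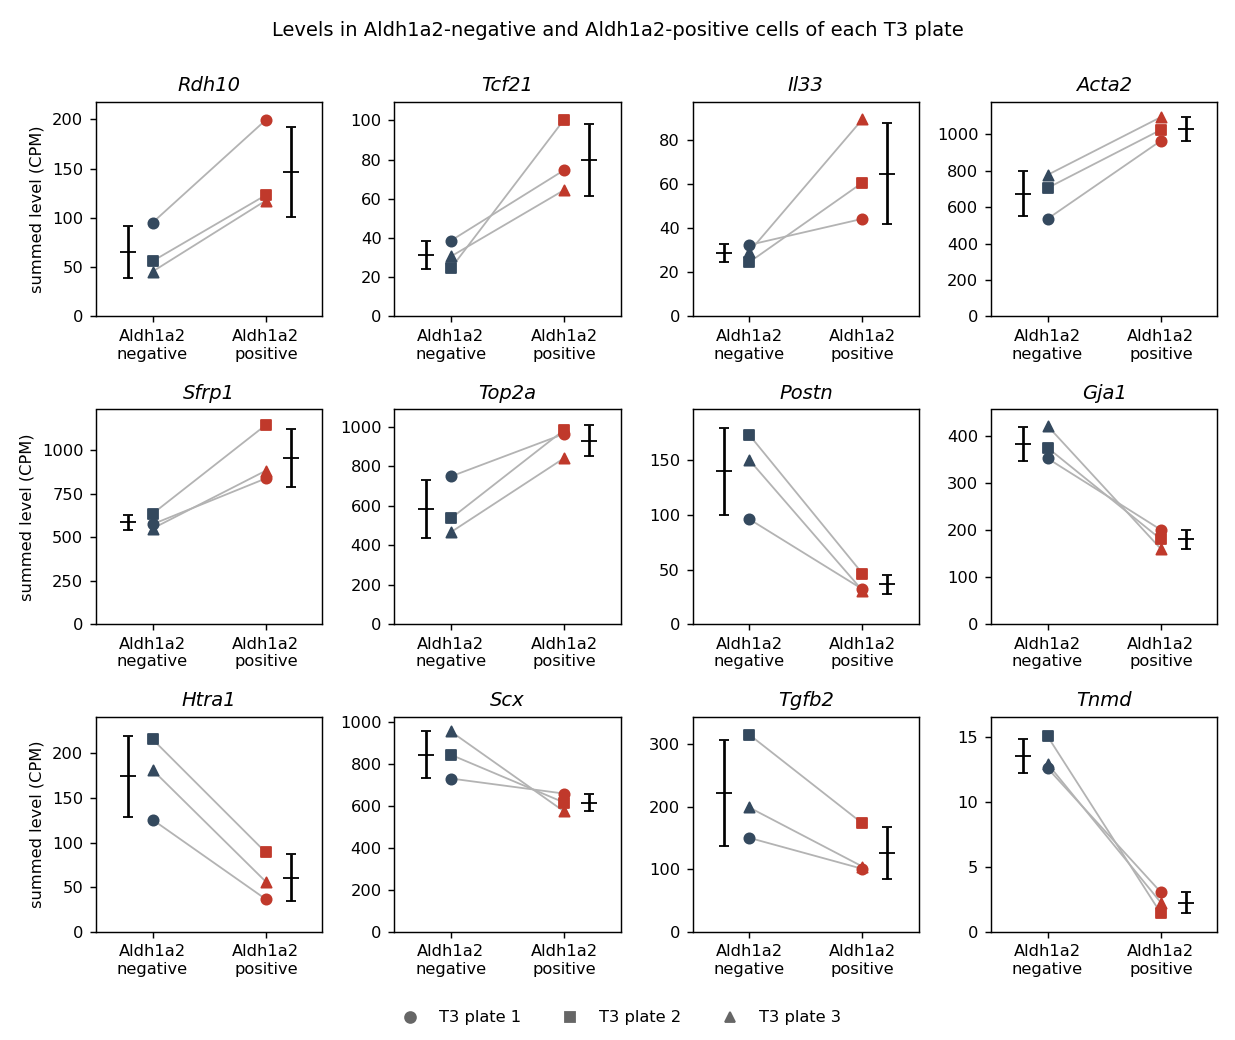
Levels (CPM, y axis from 0) of 12 genes in the summed *Aldh1a2*-negative (dark blue) and *Aldh1a2*-positive (red) cells of T3 plates 1, 2 and 3 (circle, square and triangle, joined by a line), with the mean and SD over the 3 plates in black. The 3 lines of each gene run the same way, up for *Rdh10*, *Tcf21*, *Il33*, *Acta2*, *Sfrp1* and *Top2a* and down for *Postn*, *Gja1*, *Htra1*, *Scx*, *Tgfb2* and *Tnmd*.

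**Figure D2:**
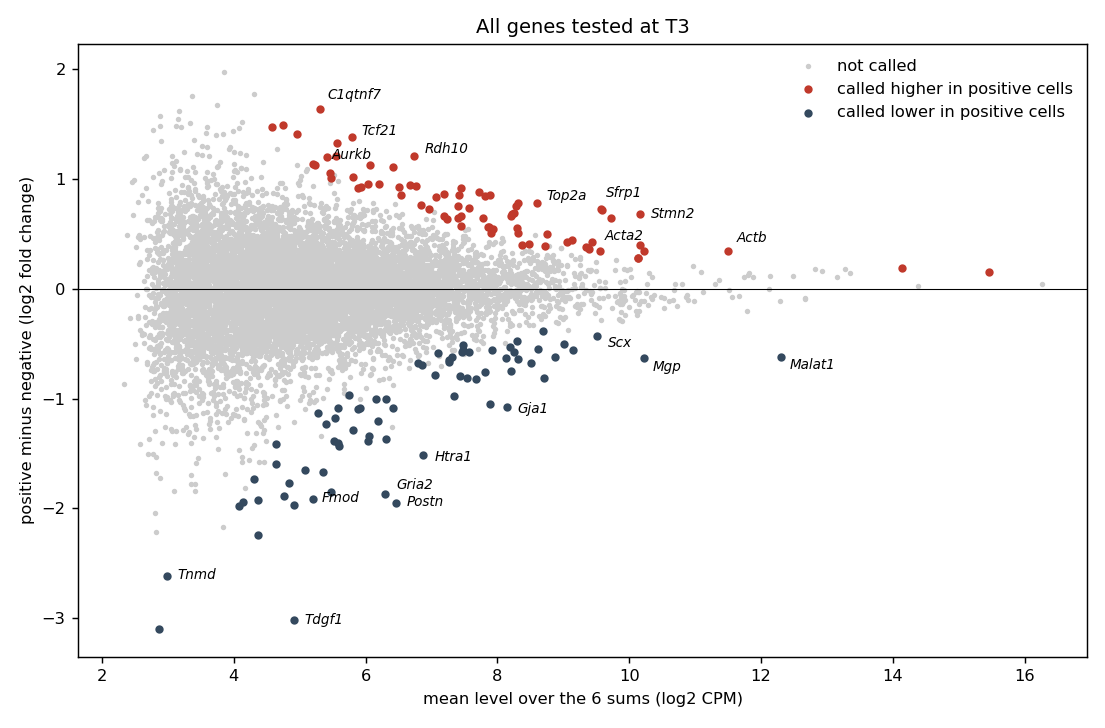
Log2 fold change of positive against negative cells (y axis) by mean level over the 6 sums (x axis, log2 CPM) for the 9721 genes tested at T3, with the 74 genes called higher in red and the 73 called lower in dark blue. The called genes lie on both sides of 0 and reach from a few CPM (*Tnmd*) past *Malat1* to *mt-Rnr1*.

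Of the genes that make, carry and break down retinoic acid, *Rdh10* rose and *Adh1* fell. *Rdh10* (ENSMUSG00000025921, chromosome 1, GRCm38 16105774 to 16133734) stood at 199, 123 and 118 CPM in the positive cells of plates 1, 2 and 3 and at 95.2, 56.2 and 45.6 CPM in the negative cells. The classes did not overlap within or between plates, and it had a log2 fold change of 1.21 ± 0.15 SE (adjusted p = 0.0015). It was 1.31 ± 0.21 after thinning and 1.20 ± 0.17 with depth pairing, called in both (adjusted p = 0.00434 and 0.00717). *Adh1*, an alcohol dehydrogenase that can oxidise retinol, was low in both classes, at 4.57, 7.12 and 8.99 CPM against 24.3, 38.8 and 21.8 CPM, and fell by 1.95 ± 0.40 on the log2 scale (adjusted p = 0.0244), a call lost in the first thinned draw (adjusted p = 0.163) and with depth pairing (adjusted p = 0.0997). Its exons overlap those of a gene on the other strand, and whether the counting used strand is not given in the sources used here. Of 22 genes in this list, 21 were in the table, 12 passed the filter on low counts, 1 was higher and 1 lower, and their median log2 fold change was 0.06. The retinoic acid binding proteins *Crabp1* and *Crabp2* did not pass the test, with log2 fold changes of -0.26 ± 0.12 (adjusted p = 0.423) and -0.18 ± 0.08 (adjusted p = 0.388). The other enzymes of the last step were nearly absent: *Aldh1a1* had no UMI in either class, and *Aldh1a3* had between 0.68 and 8.1 CPM in each of the 6 sums. Of the breakdown enzymes, *Cyp26c1* had no UMI, and *Cyp26a1* had 4.6, 0.71 and 3.0 CPM in the positive cells of plates 1, 2 and 3 and 5.4, 22.2 and 5.4 CPM in the negative cells, under the filter.

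Among the retinoic acid receptors, *Rarg* was lower in positive cells, with 10.7, 30.6 and 41.98 CPM against 55.7, 59.3 and 79.6 CPM in plates 1, 2 and 3. Its log2 fold change was -1.17 ± 0.25 (adjusted p = 0.0326), and every positive sum lay below every negative one. The call was lost in the first thinned draw (adjusted p = 0.162), with depth pairing (adjusted p = 0.0894), in DESeq2 (adjusted p = 0.0784) and without plate 2 or 3 (adjusted p = 0.158 and 0.168), and held in the second draw (adjusted p = 0.0131). *Rara* stood at 51.8, 146 and 90.7 CPM against 111, 145 and 127 CPM and did not pass the test (adjusted p = 0.383). *Meis2*, a homeobox gene of limb and trunk mesenchyme that responds to retinoic acid, was higher, with 490.4, 778 and 558 CPM against 398, 549 and 424 CPM and a log2 fold change of 0.43 ± 0.08 (adjusted p = 0.0133). Its paralog *Meis1* and the nuclear receptor gene *Nr2f1* were 0.48 ± 0.14 (adjusted p = 0.11) and 0.42 ± 0.11 (adjusted p = 0.0988) on the log2 scale and passed the test only under some alternatives, among them that with at least 2 *Aldh1a2* UMIs for a positive cell (adjusted p = 0.0457 and 0.0364). Of the 22 receptors and response genes 16 were tested, of which *Meis2* was higher and *Rarg* lower, and their median was -0.04.

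*Il33* and *Tcf21* were higher in positive cells. *Tcf21* (chromosome 10, GRCm38 22817281 to 22820174) stood at 74.6, 100.4 and 64.5 CPM in the positive cells of plates 1, 2 and 3 and at 38.6, 24.5 and 30.6 CPM in the negative cells, with a log2 fold change of 1.38 ± 0.23 SE (adjusted p = 0.00728). *Il33* (chromosome 19, GRCm38 29925114 to 29960718) stood at 44.2, 60.5 and 89.2 CPM and 32.3, 24.5 and 29.2 CPM, with a log2 fold change of 1.21 ± 0.24 SE (adjusted p = 0.0226), and its classes came closest in plate 1. The call was lost for *Tcf21* without plate 2 (adjusted p = 0.17), and for *Il33* without plate 2 (adjusted p = 0.20) or plate 3 (adjusted p = 0.47). For *Il33* it was also lost in the first thinned draw (adjusted p = 0.0809), with at least 5000 UMIs per cell (adjusted p = 0.298) and in DESeq2 (adjusted p = 0.10), and it held in the second draw and with depth pairing (adjusted p = 0.000239 and 0.0394). For *Tcf21* it held in the first draw and with depth pairing (adjusted p = 0.0122 and 0.0159) and was lost in the second draw (adjusted p = 0.084). Within T3, 29.4% ± 5.5 (SD, n = 3 plates) of positive and 11.7% ± 2.1 of negative cells held a UMI of *Tcf21*, and 20.2% ± 7.7 against 9.70% ± 0.22 held one of *Il33*. After thinning the shares were 19.7% ± 2.7 against 7.05% ± 1.7 for *Tcf21* and 13.1% ± 4.3 against 6.38% ± 0.51 for *Il33*. Both shares were higher in the positive cells of 3 of 3 plates, for which an exact sign-flip test cannot go below p = 0.25. Both genes stand in the list of mesothelial and epicardial markers, of which 14 of 15 were in the table and 5 were tested. The summed level of that list was 241 to 333 CPM in positive and 153 to 175 CPM in negative cells. Most of that gap is *Il33* and *Tcf21* themselves: without them the list summed to 122, 172 and 143 CPM in the positive cells of plates 1, 2 and 3 and to 81.8, 126 and 96.6 CPM in the negative cells. The 5 tested members, *Il33* and *Tcf21* among them, all had log2 fold changes above 0, with a median of 0.72. Of the other members, *Upk1b*, *Msln*, *Lrrn4*, *Bnc1* and *Muc16* had no UMI in either class. The positive cells are called here by *Aldh1a2* alone, and their cell type was not tested.

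Several genes of tendon and of its matrix were lower in positive cells. *Scx* (ENSMUSG00000034161, chromosome 15, GRCm38 76457452 to 76459458) stood at 658, 615 and 573 CPM in the positive cells of plates 1, 2 and 3 and at 729.6, 843 and 954 CPM in the negative cells, with a log2 fold change of -0.43 ± 0.10 SE (adjusted p = 0.0384). The call did not hold in the first thinned draw (-0.48 ± 0.11, adjusted p = 0.0536) or with depth pairing (-0.42 ± 0.10, adjusted p = 0.0981). It was also lost without plate 2 (adjusted p = 0.23) or without plate 3 (adjusted p = 0.53), and held in the second thinned draw (-0.52, adjusted p = 0.00038). *Tnmd*, which encodes the membrane protein of mature tenocytes, was near the detection limit at 3.05, 1.42 and 2.25 CPM against 12.6, 15.03 and 12.9 CPM, or 7 UMIs in all positive and 52 in all negative cells, with a log2 fold change of -2.61 ± 0.60 (adjusted p = 0.0486). *Fmod*, a small proteoglycan that binds collagen fibrils, stood at 9.14, 19.2 and 17.2 CPM against 29.7, 83.9 and 61.2 CPM, and fell by 1.91 ± 0.26 on the log2 scale (adjusted p = 0.00219). *Tnc*, the tendon matrix protein tenascin-C, fell by 0.63 ± 0.11 (adjusted p = 0.0128), while *Col14a1*, a collagen that sits on fibrils, rose by 1.33 ± 0.22 (adjusted p = 0.00674), from 10.8, 50.6 and 20.4 CPM to 30.5, 121 and 50.97 CPM in plates 1, 2 and 3. Of 16 tenocyte markers 15 were tested, 1 was higher and 4 lower, and their median log2 fold change was -0.54. In the first thinned draw 11 of them were tested and none was called, with a median of -0.40. With depth pairing 1 was higher and 2 were lower, with a median of -0.42. The main tendon collagens did not pass the test, *Col1a1* with 0.10 ± 0.05 (adjusted p = 0.438) and *Col1a2* with -0.07 ± 0.05 (adjusted p = 0.641), nor did *Egr1* with -0.22 ± 0.07 (adjusted p = 0.169).

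Periostin showed one of the largest differences of the matrix genes. *Postn*, a matricellular protein of tendon and other fibrous tissue (ENSMUSG00000027750, chromosome 3, GRCm38 54361109 to 54391037), stood at 31.98, 46.3 and 30.7 CPM in positive cells and at 96.1, 173 and 150.3 CPM in negative cells, with a log2 fold change of -1.95 ± 0.18 SE (adjusted p = 0.000263). Its highest positive sum lay below its lowest negative sum, and the call held after thinning (-1.47 ± 0.24, adjusted p = 0.00636) and with depth pairing (-1.85 ± 0.24, adjusted p = 0.00532). *Eln*, the elastin gene, fell by 1.38 ± 0.23, *Aspn* by 1.24 ± 0.27, *Ogn* by 1.09 ± 0.20, and *Bgn* by 0.67 ± 0.09 on the log2 scale, the last 3 being small leucine-rich proteoglycans. *Mgp*, an inhibitor of calcification, stood at 1039, 749.8 and 1007 CPM against 1401, 1352 and 1604 CPM, with a log2 fold change of -0.63 ± 0.08 (adjusted p = 0.0015). Of 24 proteoglycans and matricellular proteins 21 were tested, of which 8 were lower and none higher, and the median was -0.30. With depth pairing 7 of them were lower, and in the first thinned draw 3 of 21 were. The calls of *Eln*, *Aspn* and *Ogn* were lost in that draw (adjusted p = 0.0835, 0.0834 and 0.206). The secreted protease gene *Htra1* stood at 36.5, 89.01 and 56.2 CPM against 126, 216 and 182 CPM, with a log2 fold change of -1.52 ± 0.15 SE (adjusted p = 0.000364), with no overlap between the classes. Of 20 collagens and cross-linking enzymes 18 were tested. *Col6a1* and *Col6a2*, 2 of the chains of the beaded collagen around cells, were higher by 0.88 ± 0.12 and 0.92 ± 0.13 and *Col14a1* was higher as above, while the cross-linking enzymes *Loxl2* and *Plod2* were lower, with log2 fold changes of -0.67 ± 0.13 and -0.56 ± 0.08. Exons of *Tnc*, *Eln*, *Aspn*, *Loxl2* and *Plod2* overlap those of another gene, from which their reads cannot be told apart without strand.

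*Acta2*, the smooth muscle actin of contractile and activated mesenchymal cells, was higher in positive cells, at 964, 1024 and 1094 CPM against 536, 705 and 777 CPM in plates 1, 2 and 3. The classes did not overlap, and it had a log2 fold change of 0.64 ± 0.08 SE (adjusted p = 0.0015). A UMI of *Acta2* was held by 72.3% ± 9.0 (SD, n = 3 plates) of positive and 51.2% ± 8.0 of negative cells, and after thinning by 63.2% ± 5.4 against 42.0% ± 4.8. *Tpm1*, an actin-binding tropomyosin, was higher by 0.36 ± 0.07 (adjusted p = 0.0239), and of 14 contractile genes 10 were tested, 2 were higher and none lower, with a median of 0.41. Outside the list, *Actb* rose by 0.35 ± 0.05 (adjusted p = 0.00274). *Myh10*, a non-muscle myosin chosen after its values were seen, rose by 0.78 ± 0.11 (adjusted p = 0.0028).

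Of the secreted signalling genes, *Sfrp1*, an inhibitor that binds Wnt proteins, was higher in positive cells. It stood at 838, 1145 and 882 CPM against 574, 635 and 549.5 CPM, with a log2 fold change of 0.72 ± 0.07 SE (adjusted p = 0.000364), and 88.7% ± 7.3 (SD, n = 3 plates) of positive against 68.5% ± 8.8 of negative cells held it. The lowest positive sum lay above the highest negative sum. *Dkk3*, of the Dickkopf family, was lower, at 35.03, 39.2 and 57.7 CPM against 90.8, 118 and 136 CPM, with a log2 fold change of -1.37 ± 0.18 (adjusted p = 0.0015). *Tgfb2*, the gene of the ligand that was also in the medium, stood at 101, 173 and 104 CPM against 150.1, 315 and 199 CPM, with a log2 fold change of -0.79 ± 0.13 SE (adjusted p = 0.00532), and was the 1 called gene of 19 tested TGF-β ligands, receptors and response genes, whose median was -0.11. The negative sum of plate 1 lay within the range of the positive sums, while each plate on its own had the lower level in positive cells. With depth pairing it did not pass (adjusted p = 0.215). Of the FGF pathway, *Fgf9* and *Fgf18* were lower among 9 tested genes, with log2 fold changes of -1.98 ± 0.39 and -1.40 ± 0.26. *Igf1* was lower among 10 tested genes of the IGF pathway, at 209, 199 and 176 CPM against 272, 307 and 287 CPM (adjusted p = 0.0196). None of 12 tested genes of the BMP pathway or 7 of the Hedgehog pathway passed. *Sox9*, which marks progenitors of cartilage and tendon, was lower, with a log2 fold change of -0.69 ± 0.16 (adjusted p = 0.0473), the 1 called gene of the 4 tested chondrocyte markers and of the 5 tested genes of paraxial mesoderm and sclerotome. Its call was lost after thinning (adjusted p = 0.305) and with depth pairing (adjusted p = 0.29). *Alx4*, a homeobox gene, was the 1 called gene of 10 tested limb mesenchyme genes, with a log2 fold change of -1.60 ± 0.31. Of lateral plate mesoderm 6 genes were tested and none passed.

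Of the G2M phase genes, which serve mitosis, 10 of 22 were higher in positive cells. *Top2a*, the topoisomerase that untangles chromosomes, stood at 966, 986 and 843 CPM against 749, 536 and 467 CPM, with a log2 fold change of 0.73 ± 0.09 SE (adjusted p = 0.0015). *Cdk1*, the kinase that drives entry into mitosis, stood at 437, 355 and 363 CPM against 288, 225 and 190.4 CPM, with a log2 fold change of 0.76 ± 0.10 SE (adjusted p = 0.00207). *Aurkb*, a kinase of chromosome segregation, stood at 134, 113 and 101 CPM against 54.8, 48.3 and 58.5 CPM, with a log2 fold change of 1.11 ± 0.17 SE (adjusted p = 0.00421). In these 3 genes every positive sum lay above every negative one. All 22 G2M phase genes were tested, none was lower, and the log2 fold change was above 0 in 22 of 22, with a median of 0.66. The other called members were *Ube2c*, *Ccnb1*, *Ccnb2*, *Ccna2*, *Birc5*, *Nusap1* and *Plk1*, with log2 fold changes from 0.65 (*Ccnb2*) to 0.94 (*Ccnb1* and *Plk1*). The exons of *Ube2c*, *Ccna2* and *Nusap1* overlap those of Tnnc2, Exosc9 and Oip5 on the other strand, so their values are uncertain. Of 18 S phase genes none passed, and their median was 0.06. In the first thinned draw none of the 22 passed, and calls over all genes also fell there, to 13 higher and 25 lower. With depth pairing 3 of the 22 passed. The median of the list was 0.47 in the first draw and 0.48 with depth pairing. The part of depth in these values was not tested. In a second draw *Top2a*, *Aurkb* and *Birc5* passed (adjusted p = 0.00902, 0.0185 and 0.00157). Among cells at or below their plate's median share of G2M UMIs, 16 genes were called higher and 18 lower of 7061 tested, 31 of them among the 147, and 4 genes of the G2M list could be tested there, with a median of -0.01.

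The promoters of 3 of these mitotic genes are shown as examples that hold both of a known pair of elements of such promoters, the CCAAT box bound by NF-Y and the cell cycle homology region (TTTGAA or TTCGAA), both in capitals on either strand. Each runs 5′ to 3′ on its gene's strand from 250 bases before to 50 bases after the start (RefSeq, GRCm38.p6): *Cdk1* at chr10:69352863-69353162 (minus strand), *Ccnb2* at chr9:70421505-70421804 (minus strand) and *Plk1* at chr7:122159185-122159484 (plus strand).
Cdk1: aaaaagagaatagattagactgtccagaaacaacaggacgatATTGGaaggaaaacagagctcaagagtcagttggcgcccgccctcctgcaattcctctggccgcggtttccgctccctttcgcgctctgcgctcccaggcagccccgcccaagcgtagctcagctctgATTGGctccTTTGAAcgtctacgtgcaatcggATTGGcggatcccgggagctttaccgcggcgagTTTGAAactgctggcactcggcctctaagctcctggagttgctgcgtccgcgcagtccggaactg
Ccnb2: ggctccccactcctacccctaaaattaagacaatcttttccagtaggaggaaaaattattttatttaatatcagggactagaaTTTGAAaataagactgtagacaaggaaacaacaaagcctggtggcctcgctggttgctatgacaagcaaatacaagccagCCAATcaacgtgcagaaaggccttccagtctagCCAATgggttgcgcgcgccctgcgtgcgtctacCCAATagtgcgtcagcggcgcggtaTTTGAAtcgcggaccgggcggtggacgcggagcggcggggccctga
Plk1: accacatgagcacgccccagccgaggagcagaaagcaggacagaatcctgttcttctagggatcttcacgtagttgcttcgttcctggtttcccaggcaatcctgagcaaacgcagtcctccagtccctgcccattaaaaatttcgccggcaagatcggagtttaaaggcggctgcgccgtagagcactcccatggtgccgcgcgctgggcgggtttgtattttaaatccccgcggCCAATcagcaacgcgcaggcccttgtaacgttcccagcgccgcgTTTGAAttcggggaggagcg
Of the called G2M genes, 8 of 10 had a promoter in the table and 5 of these held both elements, while *Ccnb1* held the CCAAT box alone and *Birc5* and 1 other neither, in these windows. Of all genes called higher, 55 of 74 had a promoter in the table by symbol, and 15 of these (27.3%) held both elements. The share was 7.55% (4 of 53) among the genes called lower and 6.89% (506 of 7342) among all genes tested, a gene counting when any of its listed promoters held them. The CCAAT box alone was in 61.8% of the promoters of genes called higher, 37.7% of those called lower and 44.0% of all. These are matches of letters in a window of 300 bases and were not tested.

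**Figure D3:**
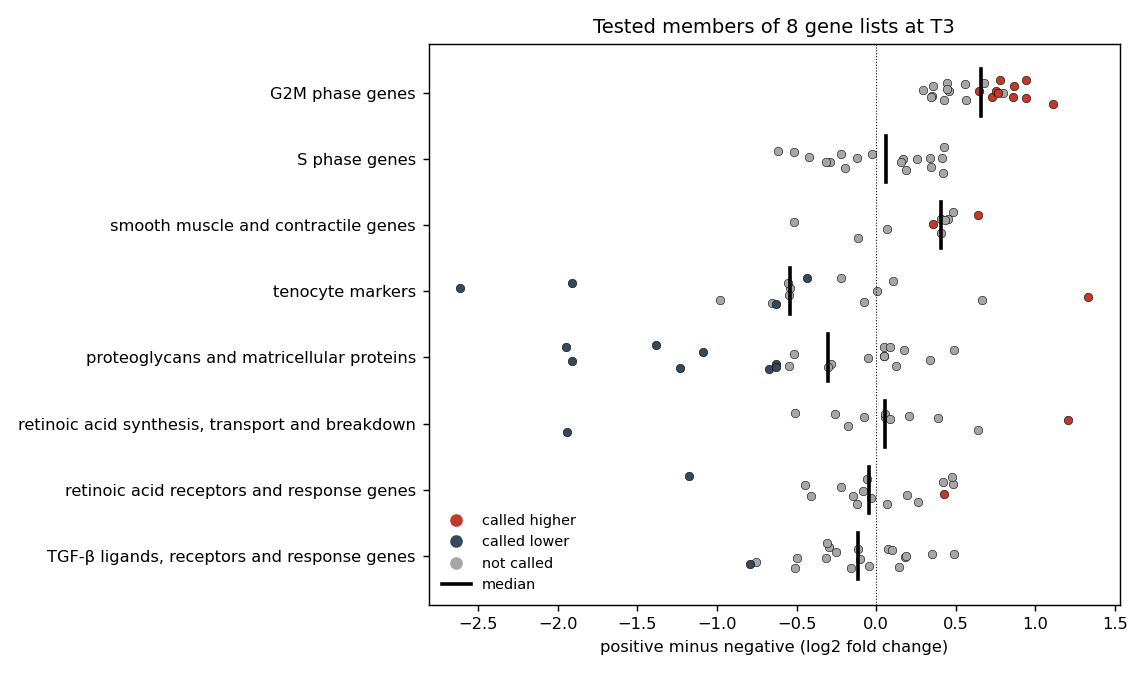
Log2 fold change of positive against negative T3 cells (x axis) for the tested members of 8 gene lists (y axis), each point a gene, red where called higher, dark blue where called lower and grey where not called, with the median of each list as a black bar. The 22 points of the G2M list all lie above 0, while the tenocyte and proteoglycan lists hold 4 and 8 called points below 0.

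Other genes stood out by size or level. *C1qtnf7*, a secreted protein of the C1q and TNF family, was named by a rule that asks for 50 CPM in the higher class, a level it reached in the positive cells alone. It had 54.8, 59.8 and 64.5 CPM against 19.8, 22.9 and 16.3 CPM and a log2 fold change of 1.63 ± 0.25 SE (adjusted p = 0.00365). The glutamate receptor gene *Gria2* stood at 16.8, 55.5 and 29.2 CPM against 69.2, 159 and 141 CPM, with a log2 fold change of -1.87 ± 0.20 (adjusted p = 0.000416). *Stmn2*, a tubulin-binding protein best known from neurons, was at 1433, 1289.6 and 1455 CPM against 1074, 820.5 and 787 CPM, with a log2 fold change of 0.68 ± 0.08 SE (adjusted p = 0.000967), the 1 called gene of 4 tested neural markers. *Gja1*, the gap junction protein connexin 43, was at 201, 181 and 160.4 CPM against 353, 376 and 422 CPM, with a log2 fold change of -1.08 ± 0.12 SE (adjusted p = 0.000518). *Cdkn1a*, the p21 inhibitor of cyclin-dependent kinases, was at 131, 483 and 307 CPM against 281, 686 and 616 CPM, with a log2 fold change of -0.81 ± 0.11 SE (adjusted p = 0.00207). In *Gria2*, *Stmn2* and *Gja1* the classes did not overlap, while the *Cdkn1a* sums overlapped between plates and differed within each. *Malat1*, a long noncoding RNA kept in the nucleus, was at 2487, 6183 and 3176 CPM against 3560.0, 9346 and 5539.6 CPM, with a log2 fold change of -0.62 ± 0.05 (adjusted p = 0.000227). Its sums overlapped between plates and differed within each. Of 24 mitochondrially encoded genes 2 were higher, *mt-Rnr1* by 0.15 and *mt-Nd4* by 0.19, and of 152 ribosomal protein genes none passed.

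Few markers of other cell types passed the test. The 9 pluripotent markers summed to 18.3, 122 and 107 CPM in the positive cells of plates 1, 2 and 3 and to 226, 214 and 118 CPM in the negative cells, where 11 of the 16 cells with at least 3 of them fell. Of 6 tested, *Tdgf1* was lower, at 0, 2.14 and 13.5 CPM against 46.7, 98.1 and 19.7 CPM (adjusted p = 0.0391), and it could not be tested once those 16 cells were left out. Without those cells 79 genes were higher and 89 lower, and 142 of the 147 genes were still called. Of the macrophage and blood list no gene was tested, and its sum was at most 6.33 CPM. Endothelial (3 tested), epithelial (3), parietal endoderm (8), fibroblast (7) and adipocyte (1) markers gave 1 called gene in all, *Fbln1*, an extracellular matrix protein, higher by 0.69 ± 0.11 (adjusted p = 0.00392). Of 13 tested stress and dissociation genes *Fos* and *Ier3* were lower, with log2 fold changes of -0.55 ± 0.10 and -0.64 ± 0.11, and the list summed to 1811, 2546 and 2691 CPM in positive against 2216, 3508 and 3326 CPM in negative cells of plates 1, 2 and 3. The part of stress in the result was not tested.

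The threshold between the classes was 1 UMI. Just inside it were 139 cells with exactly 1 *Aldh1a2* UMI, and 291 cells held at least 2. *Rdh10* stood at 65.7 ± 26.2 CPM (mean ± SD, n = 3 plates) with 0 UMIs, 106 ± 70.4 CPM with 1 and 163 ± 36.6 CPM with at least 2. *Postn* ran the other way, at 140 ± 39.6, 55.5 ± 13.2 and 27.5 ± 17.6 CPM. *Il33* did not step at 1 UMI, with 28.7 ± 3.9, 23.7 ± 5.8 and 82.2 ± 33.4 CPM. The genes were chosen on these same cells, so their direction along the steps is largely fixed by the choice. Median depth rose along the same steps, from 4744 to 4966 to 5987.5 UMIs in plate 1, 5656 to 6809 to 7852 in plate 2 and 6945 to 7481 to 8470 in plate 3. With at least 2 UMIs as the threshold, 140 genes were higher and 152 lower, and 145 of the 147 were called, on cells that are mostly the same.

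**Figure D4:**
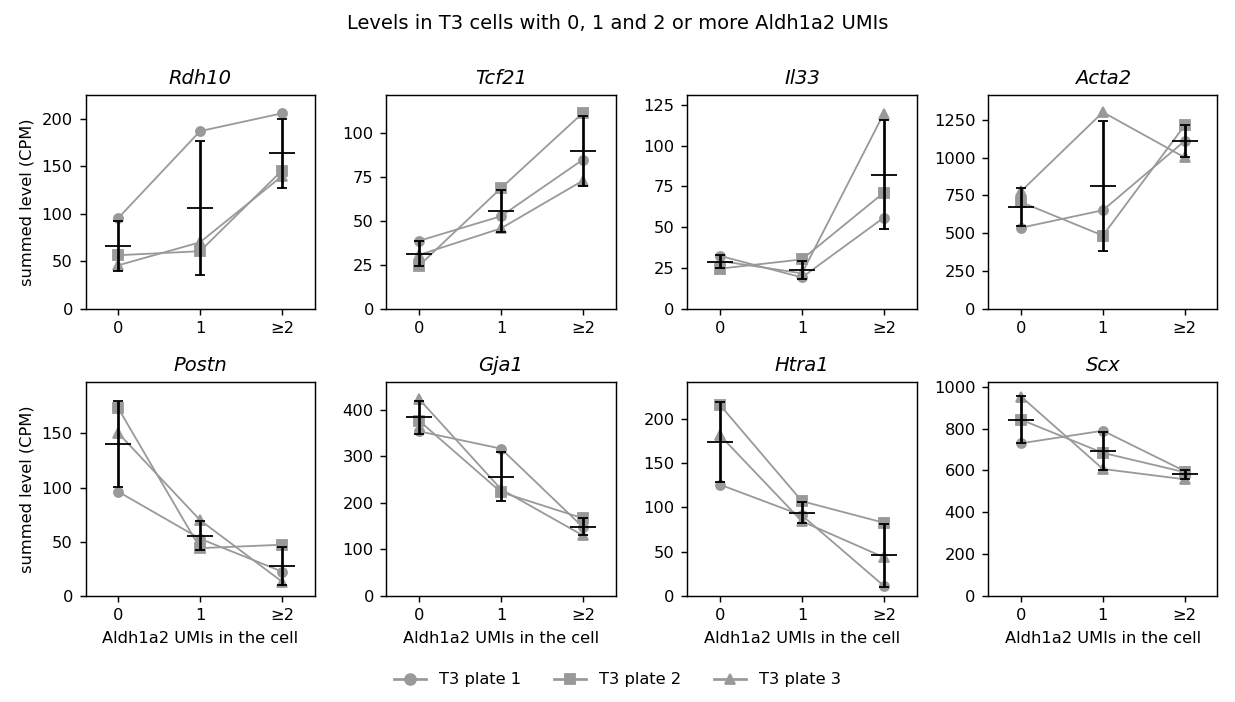
Levels (CPM, y axis from 0) of 8 genes in T3 cells with 0, 1 and at least 2 *Aldh1a2* UMIs (x axis), for plates 1, 2 and 3 (circle, square and triangle joined by grey lines), with the mean and SD in black. *Postn*, *Gja1* and *Htra1* fall in mean level at both steps, *Tcf21* rises in every plate at both, and *Il33* does not rise in mean level from 0 to 1 and rises at 2 or more in every plate.

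Most positive cells also held *Scx*. Both mRNAs were found in 83, 139 and 126 cells of plates 1, 2 and 3, or 25.8%, 38.3% and 35.7% of the cells, against 26.2%, 39.7% and 37.6% if the genes were detected independently. A UMI of *Scx* was held by 80.5% ± 3.2 (SD, n = 3 plates) of positive and 85.7% ± 6.0 of negative cells, and after thinning by 68.9% ± 2.9 against 74.3% ± 4.1, lower in positive cells of 3 of 3 plates at both depths. For *Sox9* the shares were 24.4% ± 6.7 against 31.7% ± 9.6, and after thinning 16.8% ± 1.2 against 22.6% ± 5.8. Within the cells that held *Scx*, 56 genes were higher and 60 lower by *Aldh1a2* class, and 109 of the 147 were still called. Among the cells without *Scx*, 3645 genes could be tested by edgeR and none was called, with 157 at an unadjusted p under 0.05, and 100 of the 107 tested genes of the 147 kept their direction.

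The plates of T0, T6 and T9 were not used to choose the T3 genes and share no cells with the T3 plates. Their positive cells were also deeper than their negative cells by median UMIs in every plate. The part of depth in the shared signs and calls was not tested. With the same rule, 502 of 1071 cells were positive at T0, 269 of 1081 at T6 and 148 of 1111 at T9. From T0 through T3 and T6 to T9 the positive share was 46.8% ± 5.8, 41.1% ± 6.8, 25.0% ± 5.6 and 13.4% ± 3.4 (SD, n = 3 plates), and after thinning 26.5% ± 4.5, 30.4% ± 6.1, 13.1% ± 2.9 and 6.78% ± 2.3. In a fit of all 12 plates, 10125 genes were tested, and at T6 0.405% were higher and 0.593% lower in positive cells. Of the genes called higher at T3, 71 of 74 were above 0 at T6 and 15 (20.3%) were called, which is 36.6% of the 41 genes called higher there. Of the genes called lower at T3, 68 of the 71 tested were below 0 and 26 (36.6%) were called, 43.3% of the 60 called lower at T6. At T9, where 0.267% of genes were higher and 0.138% lower, 65 of 74 and 54 of 71 had the same sign, and 8 (10.8%) and 6 (8.45%) were called. At T0, where 0.415% were higher and 0.583% lower, 50 of 74 and 48 of 71 had the same sign, and 5 (6.76%) and 7 (9.86%) were called. Among all 10125 genes between 48.3% and 51.7% had either sign at these times. Called genes that moved the other way were *Acta2*, *Pmp22* and *Epha4* at T0 and *Igf1* at T9.

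*Sfrp1* and *Lbh*, a transcriptional regulator, were higher in positive cells at all 4 time points. The log2 fold change of *Sfrp1* was 0.49 ± 0.07 at T0, 0.67 ± 0.07 at T6 and 0.74 ± 0.07 at T9 (edgeR adjusted p = 0.000257, 1.61e-06 and 9.04e-07). *Rdh10* was higher at T0 and T6, by 0.64 ± 0.14 and 0.75 ± 0.19 (edgeR adjusted p = 0.0232 and 0.0472), and stood at 0.73 ± 0.24 at T9 (adjusted p = 0.256). *Scx* was lower at T6 and T9, with log2 fold changes of -0.86 ± 0.12 and -0.93 ± 0.18 (edgeR adjusted p = 0.000107 and 0.0202). Its positive sums at T6 were 411, 337 and 297 CPM in plates 1, 2 and 3 against 702, 651 and 564 CPM, and at T9 151, 31.4 and 89.7 CPM against 219, 128 and 181 CPM. *Postn* was lower at T6 and T9, at -1.40 ± 0.11 and -0.57 ± 0.10 (edgeR adjusted p = 7.07e-09 and 0.00647). *Tnmd* and *Fmod* were lower at T6, at -1.92 ± 0.47 and -1.13 ± 0.16 (edgeR adjusted p = 0.0434 and 0.000268). *Tcf21* and *Il33* did not pass at T6 (0.96 ± 0.30 and 1.16 ± 0.45, adjusted p = 0.173 and 0.392), at T9 (0.14 ± 0.35 and 1.15 ± 0.72, adjusted p = 0.952 and 0.686) or at T0 (1.45 ± 0.72 and -0.65 ± 1.57, adjusted p = 0.643 and 0.996).

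**Figure D5:**
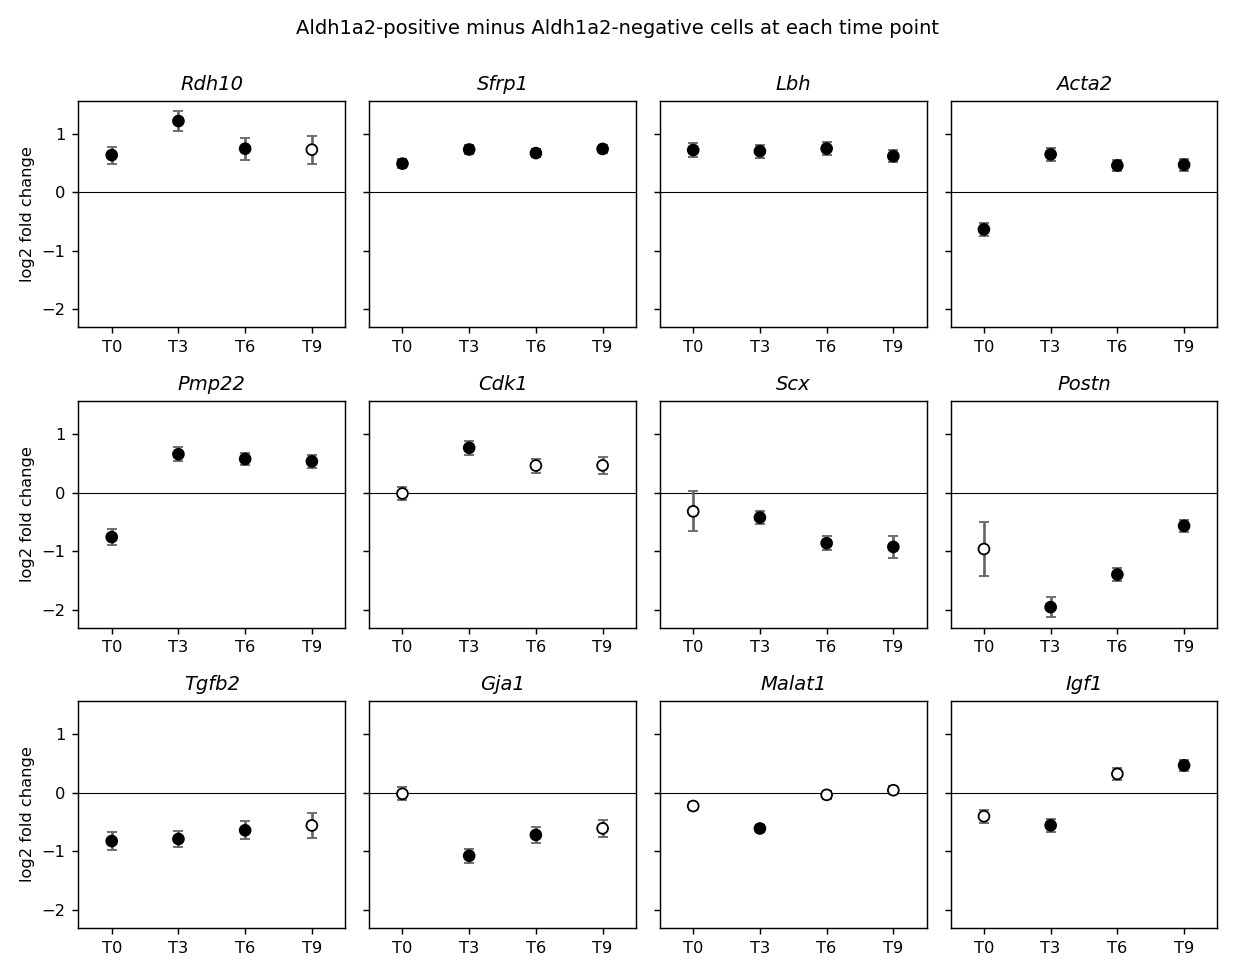
Log2 fold change of *Aldh1a2*-positive against *Aldh1a2*-negative cells (y axis, bars are SE) by time point (x axis, T0 to T9) for 12 genes in the fit of 12 plates, filled where the edgeR adjusted p was under 0.05. *Sfrp1* and *Lbh* lie above 0 at the 4 time points and *Scx* below, *Acta2* and *Pmp22* lie below 0 at T0 and above it later, and *Igf1* changes side between T3 and T6.

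The class difference itself was compared between T3 and the other times. It differed from T0 in 83 genes (0.82%), from T6 in 4 (0.0395%) and from T9 in 25 (0.247%). Of the 147 genes, 29 differed from T0, 2 from T6 and 18 from T9. These genes were chosen by their T3 values, which enter the differences, so these counts are no independent evidence. *Acta2* was lower in positive cells at T0 (-0.63 ± 0.11, edgeR adjusted p = 0.0023), at 337, 299.6 and 112 CPM against 446, 438 and 243 CPM in plates 1, 2 and 3, and higher at T3, T6 and T9. The difference between its T3 and T0 values was 1.28 ± 0.15 (edgeR adjusted p = 6.75e-05). *Pmp22*, chosen after its values were seen, differed by 1.42 ± 0.18 (edgeR adjusted p = 8.22e-05). Of the mitotic genes, *Cdk1*, *Ccnb1*, *Ccnb2*, *Ccna2* and *Plk1* were more raised in positive cells at T3 than at T0, where *Cdk1* stood at -0.01 ± 0.10. *Malat1* was lower in positive cells at T3 and differed from each of the other times, by -0.38 ± 0.09, -0.57 ± 0.09 and -0.65 ± 0.10 for T0, T6 and T9 (edgeR adjusted p = 0.0457, 0.00712 and 0.000982). *Igf1*, lower at T3, was 0.33 ± 0.10 at T6 and higher at T9 by 0.47 ± 0.10 (edgeR adjusted p = 0.135 and 0.0272).

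Over the 12 plates with all cells summed, the 5 genes whose log2(CPM + 1) went most closely with that of *Aldh1a2*, among 3610 others at a mean of 50 CPM or more, were *Acat2* (Pearson r = 0.971), *Hmgcs1* (0.965), *Mpp6* (0.962), *Aurkb* (0.955) and *Vopp1* (0.949). *Aldh1a2* stood at 158, 231, 68.0 and 41.9 CPM in the order of time, and *Hmgcs1* at 211, 240, 128 and 112 CPM. The plates share the time course, so these values describe a shared course over time. *Acat2* and *Hmgcs1*, which both serve sterol synthesis, and *Aurkb* were also higher in the positive cells of T3, *Acat2* by 0.75 ± 0.13 (adjusted p = 0.0085) and *Hmgcs1* by 0.54 ± 0.11 (adjusted p = 0.0239).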

How the data were processed

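The authors sorted 1 cell per well into 384-well plates and deposited a table of UMI counts per gene and well. Per the labels and the study's methods, reads were aligned to GRCm38 with HISAT2 (v2.2.1), assigned to genes with featureCounts and deduplicated with UMI-tools (v1.0.1); the annotation release is not given in the sources used here. The deposited counts are whole numbers, not normalised, and every well column was mapped to a plate (0 unmapped). The 12 plates reuse 384 well barcodes, so cells were told apart by plate and barcode, and no doublet caller was run. The bulk expression table and the barcode list were not used. Of the identifiers, 3 outside Ensembl (0.0642% of UMIs) were left out, and 29528 of 29629 Ensembl identifiers had a symbol.

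UMIs were summed per plate and class for cells with at least 200 genes and 3000 UMIs, without *Aldh1a2*. The 6 sums of T3, from 657032 to 1470315 UMIs each, were tested with edgeR (v4.0.16, R v4.3.3): filterByExpr, TMM scaling, the quasi-likelihood test with plate and class as terms, and Benjamini-Hochberg adjustment, with 0.05 as threshold. Both classes of a plate come from the same plate, which makes the plate the pair. The SE is the log2 fold change over the square root of F. The other times and the differences between times came from 1 fit of 24 sums. Shares of cells and UMIs carry counting error too, and the p-values measure only the spread of the class difference over 3 plates. The members and gene lists were chosen with earlier results of these data known. Named genes were those given with the comparison or named by the study, the largest changes among genes of at least 50 or 500 CPM, the retinoic acid lists and called members of the other lists; those outside this rule are said to be so. Alternatives were DESeq2 (v1.42.0), its size factors, no filter, no plate block, each plate left out, cells thinned to 3000 UMIs, negative cells paired by depth, other thresholds on UMIs or *Aldh1a2*, mean CPM in limma (v3.58.1), and subsets of cells by G2M, pluripotent markers or *Scx*; a second thinned draw and exactly 1 UMI against 0 were added after seeing the data. The script was tested on simulated data. Sequences are RefSeq's (GRCm38.p6), and coordinates come from GENCODE vM21.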

Additional observations from a re-analysis of the deposited data

Results flagged for a closer look

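The class difference at T3 differed from that at another time, by edgeR's test of the difference itself, in 83 genes for T0, 4 for T6 and 25 for T9. The values that follow are log2 differences, the class difference at T3 minus that at the other time, of the genes chosen for naming that passed.

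Against T0, genes more raised in positive cells at T3 were *Csrp1* (2.29), *Pmp22* (1.42), *Acta2* (1.28), *Ccnb1* (1.16), *Plk1* (1.02), *Ccna2* (0.957), *Cdk1* (0.781), *Ccnb2* (0.70) and *Tpm1* (0.502). More lowered were *Tdgf1* (-2.9), *Aspn* (-2.6), *Rxfp1* (-2.0), *Zfp521* (-1.71), *Dkk3* (-1.63), *Gja1* (-1.06), *Col11a1* (-0.884), *Pdgfc* (-0.815), *Col1a2* (-0.615), *Crabp2* (-0.471) and *Malat1* (-0.384). Against T6 the values were *Crabp1* (-1.24), *Igf1* (-0.88) and *Malat1* (-0.575).

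Against T9 the values above 0 were *Col14a1* (1.28), *Col6a2* (0.807), *Col6a1* (0.743) and *Hspa5* (0.545). Those below 0 were *Adh1* (-2.32), *Atp2b4* (-1.61), *Eln* (-1.53), *Postn* (-1.39), *Ogn* (-1.07), *Igf1* (-1.03), *Pdgfc* (-1.02), *Malat1* (-0.654) and *Bgn* (-0.534). The times also differ in depth: positive cells of T0 had medians of 9957 to 12329 UMIs and those of T3 5477.5 to 8095, and after thinning 28 genes differed from T0, 4 from T6 and 2 from T9. The part of depth in these differences was not tested further.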

How the results depend on the processing

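The counts of called genes at T3 (74 higher, 73 lower) moved with most choices, given here as higher and lower. They were 42 and 38 with DESeq2, 158 and 179 with no filter on low counts, 179 and 166 with all 12 plates in 1 fit, 140 and 152 with at least 2 *Aldh1a2* UMIs, 41 and 33 with at least 5000 UMIs per cell, 46 and 63 with mean CPM in limma, and 16 and 18 among cells low in G2M genes. They were 13 and 25 with cells thinned to 3000 UMIs and 26 and 38 with depth pairing. With the plates left out in turn they ranged from 17 to 172 and from 14 to 200: 172 and 200 without plate 1, 17 and 14 without plate 2, 19 and 23 without plate 3. With no replicate block they were 0 and 1 (444 at an unadjusted p under 0.05; the blocked DESeq2 fit called 80 in all). Cells without *Scx* gave 0 and 0 of 3645 tested (157 unadjusted), and cells with exactly 1 UMI against 0 gave 0 and 0 of 8352 (407 unadjusted), both with edgeR and with fewer cells. The cause of the other moves was not tested.

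All 147 genes that could be tested kept their direction under the alternatives, other than among cells low in G2M genes (*Bub3* and *Cdk1* of 131), cells without *Scx* (7 of 107) and exactly 1 UMI (*Il33* and *Tril* of 145). Over 102 named genes and their alternatives, 9 of 1986 values turned: with exactly 1 UMI *Il33* (-0.233), *Col1a1* (-0.0167) and *Sox2* (0.489), among cells without *Scx* *Col1a2* (0.00264), *Col11a1* (0.0449), *Tpm1* (-0.229) and *Igf1* (0.0256), and among cells low in G2M genes *Crabp1* (0.0873) and *Cdk1* (-0.331). None of these 9 passed the test there (adjusted p from 0.95 to 0.999).

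Fitting each time alone moved the genes called higher at both T3 and T0 from 5 to 12, and those lower at both T3 and T9 from 6 to 11. Thinning moved the number of genes that differed between T3 and T0 from 83 to 28, and between T3 and T9 from 25 to 2; *Dkk3* turned to 1.25 (adjusted p = 0.86). It moved the difference in the share of cells with *Tcf21* from 17.7 to 12.6 percentage points. Depth limits the classes, since 1 UMI is the threshold and 3000 UMIs can miss a transcript.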

Other observations

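Genes outside the lists are given here as values, chosen after they were seen, with edgeR's adjusted p at T3. The glucose transporter genes *Slc2a1* and *Slc2a3* stood at 86.8, 187 and 155 and 98.99, 178 and 164 CPM in the positive cells of plates 1, 2 and 3, against 146, 415 and 229.9 and 284, 502 and 196 CPM in the negative cells. Their log2 fold changes were -0.83 ± 0.14 (adjusted p = 0.00674) and -1.05 ± 0.20 (adjusted p = 0.0143), and both were still called after thinning (adjusted p = 0.0169 and 0.0106) and with depth pairing (adjusted p = 0.0268 and 0.0303). Without plate 2 neither was called (adjusted p = 0.227 for each), and *Slc2a3* was not called in DESeq2 (adjusted p = 0.313). *Pfkfb3*, which sets the pace of glycolysis, *Ero1l*, an oxidase of the endoplasmic reticulum, and *Vegfa*, the growth factor of blood vessels, were lower too (adjusted p = 0.0176, 0.0133 and 0.0226), the last 2 with log2 fold changes of -1.09 ± 0.20 and -0.57 ± 0.12. Of these 3, *Ero1l* alone was called in the first thinned draw (adjusted p = 0.0194). All 3 were called in the second draw (adjusted p from 1.33e-05 to 0.023) and none with depth pairing (adjusted p from 0.06 to 0.112).

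*Fbln5*, an elastic fibre protein, rose by 0.85 ± 0.11 (adjusted p = 0.0015), from 205, 134 and 148 CPM in the negative cells of plates 1, 2 and 3 to 361, 245 and 255 CPM. The neurotrophin receptor gene *Ntrk2* rose by 0.83 ± 0.15 (adjusted p = 0.0127) and the galectin gene *Lgals9* by 0.85 ± 0.14 (adjusted p = 0.00728). *Ndnf*, a secreted protein first known from neurons, stood at 4.57, 8.54 and 7.5 CPM against 32.3, 34.8 and 36.05 CPM, with a log2 fold change of -2.24 ± 0.35 (adjusted p = 0.0049). *Pdgfc*, a ligand of the PDGF receptors, was lower, with a log2 fold change of -0.81 ± 0.12 (adjusted p = 0.00303).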
